A study of Mus musculus with 91 samples.

Results

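The livers described here came from adult male C57BL mice labelled as given methapyrilene HCl, a histamine H1 receptor blocker, at 1000 ppm in food for 28 days (5 arrays, MePy), and from the carboxymethylcellulose (CMC) cohort that the labels name as their control, at 0 mg/kg for 28 days (4 arrays, Co3). They were selected by their titles and make up 9 of the 91 liver arrays of the series. All 19 groups of the series were male mice, of which 2 groups carried the strain label C57BL/hCAR/hPXR and 2 other groups were treated for 56 days in place of 28, and group size was stated as 5 randomly assigned mice. For comparison, 5 arrays labelled pioglitazone (100 mg/kg by oral gavage, 28 days, Pio) were set against their own CMC cohort of 4 arrays (Co5, 0 mg/kg, 28 days). No genetic change is given for any of these 4 groups, ages are given only as adult, and all mice were killed with carbon dioxide. Methapyrilene was given in food, and the labels do not name the route of CMC in Co3. Group and route therefore cannot be told apart. Each array held RNA of whole liver, and nothing in the labels says more about separate mice than the group size, so p-values measure the spread between arrays, which may be technical.

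PPARγ is a nuclear receptor that is activated by pioglitazone and other thiazolidinediones and drives fat storage in adipocytes. In hepatocytes its activation is known to raise genes of lipid droplets and of fatty acid uptake, among them Fabp4, Cidea, Cidec, Plin4 and Cd36. PPARα, which Wy-14643 activates, drives fatty acid oxidation and shares several of these targets. CAR is a different nuclear receptor, known for inducing Cyp2b10.

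In the livers labelled methapyrilene, 5 genes of lipid droplets and fatty acid handling rose. Fabp4, Cidea and Cidec were 5.86-fold to 10.3-fold higher than in Co3, and Plin4 and Cd36 were 3.25-fold and 3.39-fold higher. In the livers labelled pioglitazone none of these 5 genes was called, while Cyp2b10 and Cyp2c55 were. The groups are therefore called by their labels throughout, and whether labels were exchanged was not tested.

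Of 18193 genes, 33 were called between the livers labelled methapyrilene and Co3 at an adjusted p below 0.05 (limma over all 91 arrays, two-sided, Benjamini-Hochberg). These 33 genes are 0.181% of the genes tested: 27 rose (0.148%) and 6 fell (0.033%). At an unadjusted p below 0.05 there were 1224 genes. Among the called genes, 15 rises and 1 fall reached 2-fold. In 24 of the 33 the groups did not overlap, that is, all 5 values lay above the highest or all 5 below the lowest of the 4 Co3 values, as they did for 2.58% of all genes (1.62% higher and 0.962% lower). The median log2 difference over all genes was 0.01, with 52.3% of genes higher. In a fit of only the 9 arrays compared, 4 calls were left in all. Pigp and Serpinb1a kept theirs there (limma, adjusted p = 0.0227 and 0.0111), while Cd36 and Kbtbd11 (both 0.0516), Gprc5b (0.0658), Fabp4 (0.277), Cidea and Cidec (both 0.300) and Plin4 (0.359) did not pass the test. The calls of these lipid genes therefore rest on the spread pooled over all 19 groups, which is narrower for Fabp4, Cidea and Cidec than the SD of 1.67 to 2.13 within MePy.

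The proximal promoters of 3 genes that rose together are shown, because these lipid genes rose in the same livers and PPARs bind repeats of a short motif. The windows are the 250 bases before the annotated start from RefSeq (GRCm38.p6), all on the minus strand and written 5′ to 3′: Cd36 at chr5:17835897-17836146, Cidec at chr6:113435761-113436010 and Plin4 at chr17:56109783-56110032. Capitals mark AGGTCA, the core motif of nuclear receptor binding sites, on either strand.
Cd36: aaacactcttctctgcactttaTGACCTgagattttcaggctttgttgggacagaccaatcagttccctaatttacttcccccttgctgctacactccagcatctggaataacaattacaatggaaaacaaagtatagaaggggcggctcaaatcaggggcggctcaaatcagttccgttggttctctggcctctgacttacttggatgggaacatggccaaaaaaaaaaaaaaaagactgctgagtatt
Cidec: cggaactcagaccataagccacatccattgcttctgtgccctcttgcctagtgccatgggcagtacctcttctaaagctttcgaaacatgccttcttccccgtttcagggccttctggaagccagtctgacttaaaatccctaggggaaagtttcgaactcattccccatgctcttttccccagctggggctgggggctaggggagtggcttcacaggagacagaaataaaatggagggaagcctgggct
Plin4: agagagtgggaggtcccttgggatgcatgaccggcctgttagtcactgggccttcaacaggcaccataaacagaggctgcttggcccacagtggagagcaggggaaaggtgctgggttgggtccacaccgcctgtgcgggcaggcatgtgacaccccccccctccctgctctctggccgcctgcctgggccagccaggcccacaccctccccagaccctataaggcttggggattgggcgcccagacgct
The Cd36 window held 1 such motif and the other two windows held none. Among the 27 genes that rose, 20 had at least 1 window in the RefSeq table, and 5 of these 20 genes (25.0%) held AGGTCA in a window, against 15.8% of all 27025 genes with a window. Both strands were searched. A gene with several windows has more chances to hold the motif, and the shares were not adjusted for this. Of all 32851 windows 14.0% held it. The direct repeat DR1, which is AGGNCA, 1 base of any kind and AGGNCA again, and so overlaps that motif, was in none of those 20 genes and in 0.400% of all genes. No match says only that these letters are not in these windows.

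Fabp4, the adipocyte fatty acid-binding protein that carries fatty acids in the cytosol, had the largest difference of the genes called. Its log2 values were 9.22, 12.54, 10.25, 7.44 and 12.25 in the livers labelled methapyrilene, against 6.81, 7.49, 6.56 and 7.02 in Co3 livers. Replicates 2 and 5 were the highest, and replicate 4 lay just inside the Co3 range. The group means were 10.34 ± 2.13 and 6.97 ± 0.39 (SD, n = 5 and 4), a log2 difference of 3.37 with a standard error of 0.540 (limma, adjusted p = 0.000127).

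Cidea and Cidec belong to the CIDE proteins, which sit at lipid droplet contacts and let droplets grow. Cidec had log2 values of 7.95, 7.51, 8.25, 4.17 and 7.66 in the livers labelled methapyrilene, against 4.28, 5.06, 4.56 and 4.34 in Co3 livers. Its log2 difference was 2.55 ± 0.440 (SE, limma, adjusted p = 0.000348). In 4 of the 5 livers it was more than 2 log2 units above every Co3 liver, and in replicate 4 it was below all of them.

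Cidea had log2 values of 8.65, 6.99, 9.77, 4.33 and 8.04 in the livers labelled methapyrilene, against 4.29, 4.27, 4.52 and 4.69 in Co3 livers. The log2 difference was 3.11 ± 0.557 (SE, limma, adjusted p = 0.000599), and again only replicate 4 lay inside the Co3 range. Cideb, the third CIDE protein, was not called: it averaged 11.36 ± 0.07 in the livers labelled methapyrilene and 11.62 ± 0.12 in Co3 livers (SD, n = 5 and 4), with no overlap of the groups.

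Plin4 codes for a perilipin, a coat protein of lipid droplets. It had log2 values of 8.93, 9.61, 9.39, 6.61 and 8.88 in the livers labelled methapyrilene, against 7.70, 6.94, 6.58 and 6.73 in Co3 livers. Its log2 difference was 1.70 ± 0.387 (SE, limma, adjusted p = 0.0252), and the call was lost in 7 of 9 fits that each left out 1 array (adjusted p up to 0.159), with the exceptions being MePy replicate 4 and Co3 replicate 1. Plin2, Plin3 and Plin5, the other perilipins measured, had log2 differences between -0.09 and 0.11 and were not called.

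Cd36, the membrane transporter of long-chain fatty acids, separated the groups completely. Its log2 values were 10.56, 11.01, 11.17, 9.70 and 11.12 in the livers labelled methapyrilene, against 8.61, 9.34, 8.74 and 9.10 in Co3 livers. The log2 difference was 1.76 ± 0.340 (SE, limma, adjusted p = 0.00233), and the other two probe sets of Cd36 gave 2.17 and 1.96.

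Lpl, the lipoprotein lipase that frees fatty acids from circulating triglyceride, was not called. It had log2 values of 11.12, 10.75, 10.98, 11.73 and 12.03 in the livers labelled methapyrilene, against 9.15, 11.00, 9.12 and 8.94 in Co3 livers (log2 difference 1.77 ± 0.456 SE, limma, adjusted p = 0.0851). Co3 replicate 2 was the only Co3 liver within their range, and without it Lpl was called (2.25, limma, adjusted p = 0.0129). The other, dimmer probe set of Lpl gave 2.16 and passed in a test over all probe sets (limma, adjusted p = 0.0336). In that test the probe set used had an adjusted p of 0.118 (limma). Among the fatty acid-binding proteins, 1 of 9 measured genes was called, Fabp4, beside 0.148% rising among all genes. Fabp5, the epidermal form, was 13.45 ± 0.58 in the livers labelled methapyrilene and 12.18 ± 0.21 in Co3 livers (SD, n = 5 and 4) with no overlap, but did not pass the test (limma, adjusted p = 0.533). Fabp1, the main liver form, was 14.82 ± 0.11 in the livers labelled methapyrilene and 14.85 ± 0.05 in Co3 livers (SD, n = 5 and 4).

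**Figure D1:**
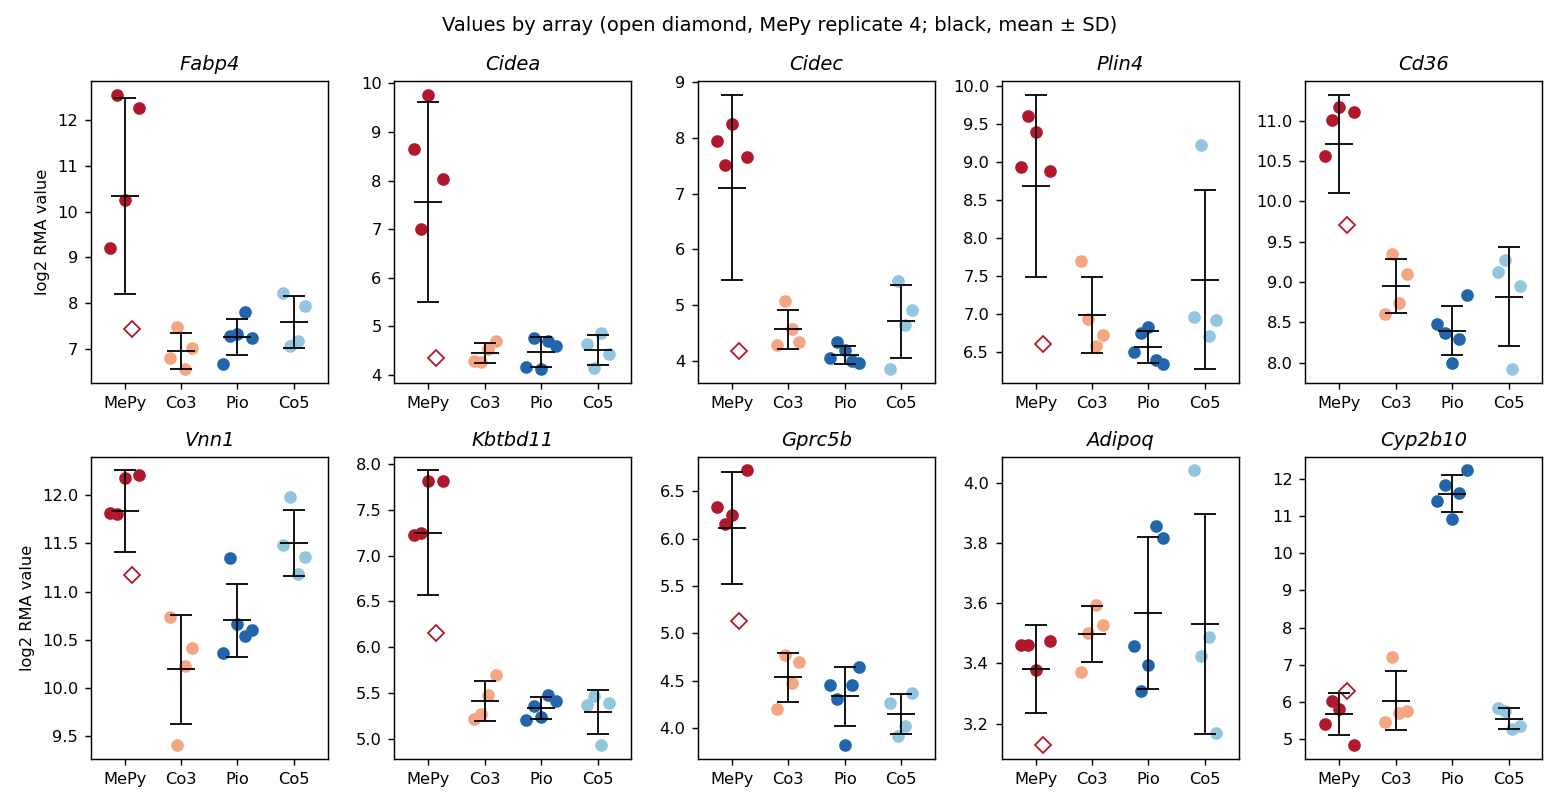
Log2 RMA value (vertical axis, with a separate scale in each panel) of 10 genes in every array labelled methapyrilene (MePy), CMC Co3, pioglitazone (Pio) and CMC Co5. Points are arrays, black bars are means ± SD, and the open diamond is MePy replicate 4, which lies within or below the Co3 values for Fabp4 (7.44), Cidea (4.33), Cidec (4.17) and Plin4 (6.61) but above them for Cd36 (9.70), Vnn1, Kbtbd11 and Gprc5b.

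As a list, PPARγ targets and lipid droplet genes had 28 measured members, of which 5 rose, 0 fell and 23 did not pass the test, beside 0.148% rising among all genes. The list was assembled with earlier results of these data known. Of the 28 differences 24 were above 0, and the median was 0.23, beside 0.01 over all genes. Without MePy replicate 4 there were 5 rises in the list (0.187% of all genes rose), without Co3 replicate 2 there were 5 (0.132%) and without both there were 6 (0.198% rose and 0.0165% fell). The mean over the list per array was 7.91 to 8.80 in the livers labelled methapyrilene and 7.74 to 7.91 in Co3 livers, and the lowest value was that of MePy replicate 4.

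Defining markers of adipocytes were not called beside these genes. Of 7 defining adipocyte markers 4 were measured by a probe set with 1 gene symbol (Adipoq, Retn, Lep and Slc7a10), and none was called. Adiponectin, Adipoq, was at 3.13 to 3.47 in the livers labelled methapyrilene and at 3.37 to 3.59 in Co3 livers, where the lowest value in the table was 2.61. Retn was at 5.31 to 6.92 in the livers labelled methapyrilene and at 5.27 to 5.91 in Co3 livers, a log2 difference of 0.27. Lep and Slc7a10 differed by -0.10 and -0.19. The mean of the 4 markers per array was 4.30 to 4.87 in the livers labelled methapyrilene and 4.34 to 4.72 in Co3 livers. The highest mean was that of MePy replicate 2, which also had the highest Fabp4 (12.54), and the lowest was that of replicate 5, also high for Fabp4. Whether adipocyte RNA had a part was not tested. In whole liver, more or fewer cells of a type and more or less RNA per cell cannot be told apart. The 13 hepatocyte markers measured averaged 13.61 to 13.71 per array in the livers labelled methapyrilene and 13.69 to 13.80 in Co3 livers. Of these 13 markers 11 were lower in the livers labelled methapyrilene (median log2 difference -0.07), and none was called.

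Vnn1 was the single call among 41 PPARα and fatty acid oxidation genes, with 40 not called, beside 0.148% rising among all genes. Vanin-1, its product, is a pantetheinase that makes cysteamine and is a known PPARα target. Its log2 values were 11.81, 11.80, 12.18, 11.17 and 12.21 in the livers labelled methapyrilene, against 10.74, 9.41, 10.22 and 10.41 in Co3 livers (log2 difference 1.64 ± 0.369 SE, limma, adjusted p = 0.0230). The groups did not overlap, but the call was lost in 5 of 9 fits that each left out 1 array (MePy replicates 3 and 5 and Co3 replicates 2, 3 and 4, adjusted p up to 0.188), so that the list held 0 calls without Co3 replicate 2. The cytochrome Cyp4a14, an omega-hydroxylase of fatty acids, was 12.62 ± 0.40 in the livers labelled methapyrilene and 10.99 ± 0.75 in Co3 livers (SD, n = 5 and 4) without overlap and was not called (limma, adjusted p = 0.773). It has close paralogs that could share its probe signal.

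The smallest p-values belonged to a pair of genes outside the lists. Kbtbd11, a kelch and BTB domain protein, had log2 values of 7.23, 7.24, 7.81, 6.15 and 7.81 in the livers labelled methapyrilene, against 5.22, 5.26, 5.48 and 5.69 in Co3 livers (log2 difference 1.84 ± 0.207 SE, limma, adjusted p = 1.52e-09). Gprc5b, an orphan G protein-coupled receptor, had log2 values of 6.33, 6.15, 6.25, 5.13 and 6.72 in the livers labelled methapyrilene, against 4.20, 4.77, 4.47 and 4.70 in Co3 livers (log2 difference 1.58 ± 0.175 SE, limma, adjusted p = 1.49e-09). In both genes all 5 livers exceeded all 4 Co3 livers, replicate 4 being the nearest. Serpinb1a, an inhibitor of neutrophil proteases, had log2 values of 6.74, 7.27, 7.09, 6.80 and 6.67 in the livers labelled methapyrilene, against 5.12, 4.07, 5.25 and 5.26 in Co3 livers (log2 difference 1.99 ± 0.367 SE, limma, adjusted p = 0.00104). There replicate 4 was in the middle of its group.

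A further 10 of the 15 largest rises whose groups did not overlap had log2 differences between 0.74 and 1.24. Adgrg2, an adhesion G protein-coupled receptor, was 1.24 higher, and Rdh9, a retinol dehydrogenase, was 1.22 higher. Pigp, an enzyme of GPI anchor synthesis, rose by 1.00, and its 5 values, 9.02 to 9.69 in the livers labelled methapyrilene, stood clear of 8.14 to 8.48 in Co3 livers. The other genes were Gal3st1 (a sulfotransferase of sulfatide synthesis), Fam126a, Car2 (a carbonic anhydrase), Proca1, Rab34 (a small GTPase), Wwtr1 (the Hippo pathway coactivator TAZ) and Gngt1 (a G protein gamma subunit), with log2 rises of 0.74 to 0.99. Of the 9 fits that each left out 1 array, Proca1 lost its call in 8, Gal3st1, Rab34 and Gngt1 in 6 and Wwtr1 in 5. Car2 lost it in 2 and Rdh9 in 1, while Adgrg2, Pigp and Fam126a kept theirs in every fit. Among the other CMC cohorts, Gngt1 was called only against Co4, and Proca1 was not called against Co1 or Co5. Rdh9 was not called against Co4, where its log2 difference was 0.52.

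A further 7 rises fell outside that rule and were named after their values were seen. Anxa2, the membrane-binding protein annexin A2, rose by 1.48, and overlapped Co3 through its replicate 2, with 9.13, 9.13, 10.05, 8.45 and 9.95 in the livers labelled methapyrilene, against 7.09, 8.95, 7.53 and 7.87 in Co3 livers. Bhlhb9, Tmem98 and Ermp1 rose by 1.46, 0.81 and 0.72 with overlap, and Unc119, Zfp759 and Zmym1 by 0.56 to 0.72 without overlap. With 1 array left out in each of 9 fits, the call was lost in 8 for Zmym1, 7 for Unc119 and 6 each for Tmem98 and Ermp1. Anxa2, Bhlhb9 and Zfp759 kept theirs in every fit. Unc119 was not called against Co1, Co2 or Co5, Zfp759 not against Co1 or Co5, and Zmym1 not against Co4.

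Probe sets of a gene did not always move alike. Of the 4 Fabp4 probe sets, the brighter pair gave 3.37 and 2.99, while the dimmer pair gave 0.12 and 0.35. The unused probe sets of Kbtbd11 and Gprc5b, all with a lower mean signal, gave 0.03 to 0.36 and were not called. Those of Anxa2 gave 0.47 and -0.06, of Adgrg2 0.20, of Zfp759 0.02 and of Serpinb1a 0.58. For Ermp1 they gave 0.68 and -0.09, and for Slc25a25, which fell, -0.84 and -0.03. The unused probe set of Vnn1 gave 1.77. With the probe sets of a gene averaged, Zfp759 and Ermp1 lost their calls.

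Fewer genes fell. Slc25a25, a mitochondrial ATP-Mg/phosphate carrier, fell by 1.13 on the log2 scale. Its log2 values were 7.99, 7.86, 8.19, 7.51 and 8.19 in the livers labelled methapyrilene, against 9.52, 8.93, 8.82 and 9.06 in Co3 livers (SE 0.232, limma, adjusted p = 0.00638), with no overlap. That call was lost without Co3 replicate 1 (adjusted p = 0.0981), as were those of all 6 falls, and 1 fall was left without MePy replicate 5 and 2 without Co3 replicate 4. The cytochromes Cyp3a25 and Cyp2d10, members of families with near-identical paralogs whose signals may mix, fell by 0.57 and 0.30. Slc6a7, a proline transporter, and Paqr6, of the progestin and adipoQ receptor family, fell by 0.51 and 0.50. Of the 4 other CMC cohorts, Slc6a7 was called against 1 and Paqr6 against 0. Co3 itself was above the mean of the other cohorts for both, by 0.30 and 0.31 (limma, adjusted p = 0.0476 and 0.0233). In the 9 fits that each left out 1 array, the call was lost in 6 for Slc6a7 (adjusted p up to 0.409), 5 for Cyp3a25 (up to 0.284), 4 for Paqr6 (up to 0.224) and 4 for Cyp2d10 (up to 0.144). The sixth fall was the predicted gene Gm15545.

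**Figure D2:**
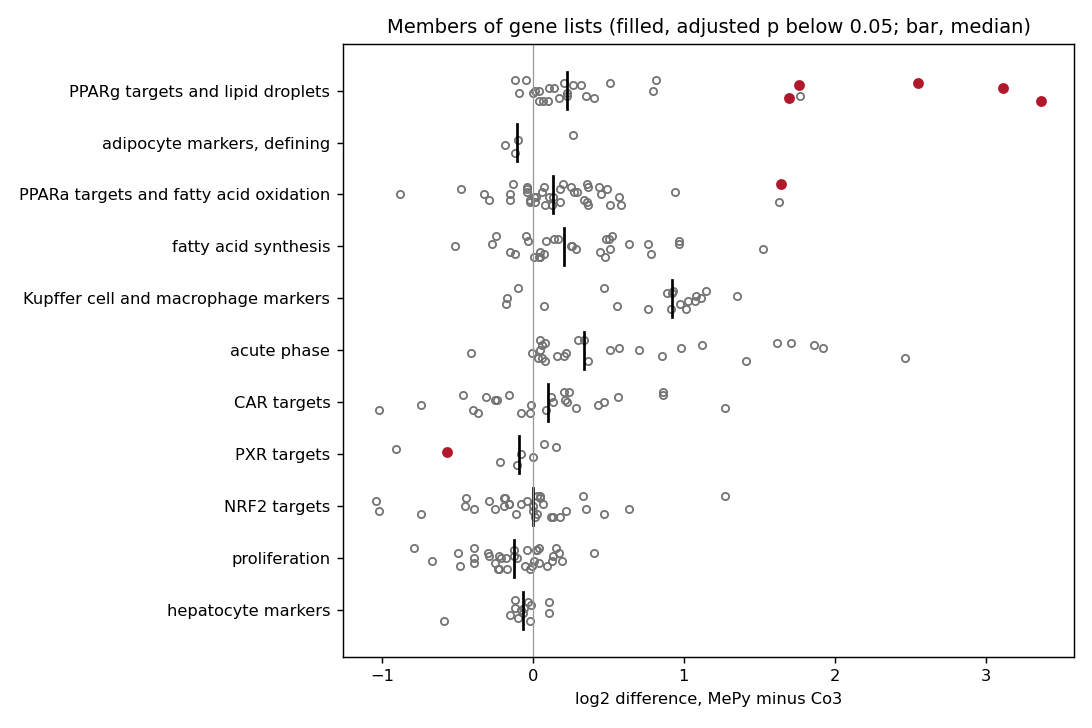
Log2 difference of the livers labelled methapyrilene minus Co3 (horizontal axis) for every measured member of 11 gene lists, 1 circle per gene, with filled circles for an adjusted p below 0.05 and a black bar at each median. The 5 filled circles of the PPARγ and lipid droplet list lie at 1.70 and above, the 4 adipocyte markers lie near 0, and the Kupffer cell list has a median of 0.92 with no filled circle.

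With 0.181% of all genes called, a list of this size would seldom hold a called gene, and a count of 0 called is no result about any list, the cell type markers included. Among 8 targets of PXR, the receptor that induces Cyp3a genes, 1 fell (Cyp3a25), beside 0.033% of all genes. None of the 8 was called without MePy replicate 4, without Co3 replicate 2 or without both, and Cyp3a25 was not called against Co4 or Co5 (log2 differences -0.13 and -0.33). None of 30 fatty acid synthesis genes was called, although 23 were higher and Pnpla3 (a lipase-like protein of lipid droplets) differed by 1.52 and Acacb (the acetyl-CoA carboxylase of mitochondria) by 0.97 with no overlap of the groups. Against Co2 the difference of Pnpla3 was -0.84. None of 26 CAR targets, 33 NRF2 targets (genes of the oxidative stress response), 24 p53 genes, 35 proliferation genes or 7 histamine receptor and metabolism genes was called. In the NRF2 list Abcc4 (an efflux transporter) differed by 1.27, and Osgin1 and Gsta2 by -1.04 and -1.02.

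Kupffer cell and macrophage markers were mostly higher without passing the test. Of 19 measured, 16 were above 0, 0 were called and the median log2 difference was 0.92. The mean of the list per array was 7.40, 7.01, 7.11, 8.18 and 8.13 in the livers labelled methapyrilene, against 6.28, 7.31, 6.94 and 6.81 in Co3 livers, so that the groups overlapped through Co3 replicate 2. The scavenger receptor Marco had the largest difference (1.35), with 9.51 in MePy replicate 4, but its difference was below 0 against Co2 and Co4 (-0.90 against Co4). Whether macrophage RNA had a part in any of the rises was not tested. Of the arrays with the highest macrophage means, replicate 4 had the lowest Fabp4 of its group (7.44) and replicate 5 had 12.25.

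The acute phase list, 27 secreted proteins and relatives that hepatocytes raise in inflammation, had 25 members above 0 and none called, with a median of 0.34. Its mean was 12.73 in MePy replicate 2, against 10.81 to 11.56 in the other MePy livers and 10.45 to 11.25 in Co3 livers. Lcn2 (lipocalin 2) stood at 12.83 in that liver and at 5.39 to 8.27 in Co3 livers, and its group difference was -1.71 against Co2 and -4.04 against Co4. The same liver had Hsd3b5, a gene of male livers, at 6.08, against 8.72 to 12.56 in Co3 livers. The part of this liver's state in its Fabp4 value of 12.54 was not tested.

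Array by array, replicate 4 of the livers labelled methapyrilene stood apart in the genes called, though not over all genes. Its mean correlation with its group over all genes was 0.9915, and the lowest in MePy was that of replicate 2 (0.9885). Replicate 4 had the lowest of the 5 values in 20 of the 27 rises. Without it, 34 genes rose (0.187%) and 5 fell (0.0275%), and the log2 differences of Fabp4, Cidea, Cidec and Plin4 were 4.09, 3.92, 3.28 and 2.22. In Co3, replicate 2 stood apart: its mean over the proliferation list was 6.83, against 5.49 to 5.69 in the other Co3 livers and 5.61 to 5.90 in the livers labelled methapyrilene. In that liver Ube2c, an enzyme of mitotic exit, was at 8.66, against 4.14 to 5.02 in the other Co3 livers. Without it, 24 genes rose (0.132%) and 4 fell (0.022%).

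The livers labelled pioglitazone did not show the lipid pattern against their own cohort. There, 4 genes were called (0.022% of those tested, with 1394 at an unadjusted p below 0.05): Cyp2b10, Cyp2c55 and Cyp2c29 rose (0.0165%) and Tor3a fell (0.0055%), named after their values were seen. Cyp2b10, the main phenobarbital-inducible cytochrome of mouse liver, was 11.41, 11.84, 10.93, 11.63 and 12.23 in the livers labelled pioglitazone, against 5.82, 5.75, 5.27 and 5.35 in Co5 livers. In the livers labelled methapyrilene it was 5.40, 6.03, 5.79, 6.28 and 4.83, against 5.45, 7.21, 5.70 and 5.77 in Co3 livers. Thus it was high only in the livers labelled pioglitazone among these 4 groups, with a log2 difference of 6.06 there (limma, adjusted p = 1.17e-15). These cytochromes have close paralogs, and their probe sets may pick up more than 1 of them.

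Fabp4 was 6.69, 7.30, 7.32, 7.80 and 7.25 in the livers labelled pioglitazone, against 8.23, 7.07, 7.19 and 7.94 in Co5 livers. Cidec was 4.04, 4.33, 4.20, 4.00 and 3.95 in the livers labelled pioglitazone, against 3.84, 5.43, 4.64 and 4.91 in Co5 livers. For both genes the groups overlapped. None of the 28 PPARγ and lipid droplet genes was called in that comparison, and 3 of 26 CAR targets were, beside 0.0165% rising among all genes. These 3 are the rises already named, Cyp2b10, Cyp2c55 and Cyp2c29.

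The difference between the MePy contrast (MePy minus Co3) and the Pio contrast (Pio minus Co5), which share no array, was tested directly. It was called for 25 genes (0.137%), 21 with a higher and 4 with a lower difference in the MePy contrast. On the log2 scale the difference between contrasts was 3.70 for Fabp4 (limma, adjusted p = 0.0127), 3.15 for Cidec (adjusted p = 0.00812), 2.59 for Plin4 (adjusted p = 0.0150) and 2.19 for Cd36 (adjusted p = 0.0238). For Cidea it was 3.16 and missed the threshold (adjusted p = 0.0910).

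Vnn1, Kbtbd11 and Gprc5b also differed between the contrasts, by 2.44, 1.79 and 1.39 (limma, adjusted p = 0.0150, 0.000156 and 0.00104). In the opposite direction Cyp2b10 differed by -6.42, Cyp2c55 by -3.49, Cyp2c29 by -1.21 and the carboxylesterase Ces2a by -0.82. Further genes called here include Gpat3 (triglyceride synthesis, 2.37), Acaa1a (peroxisomal thiolase, 0.97) and Pex11a (peroxisome division, 1.18), which were not called in the MePy contrast alone. Their differences there were 1.36, 0.44 and 0.36, and the rest came from lower values in Pio than in Co5. Against other cohorts Pex11a was also lower in MePy (-0.21 against Co1, -0.49 against Co5), as was Acaa1a against Co1 (-0.03). Leaving out each of the 18 arrays in turn, the calls of Cidec, Kbtbd11, Gprc5b, Cyp2b10, Cyp2c55 and Cyp2c29 stayed in every fit. Other calls were lost in 12 (Gpat3, adjusted p up to 0.295), 11 (Pex11a, up to 0.375), 10 (Cd36, up to 0.111, and Ces2a, up to 0.109), 3 (Vnn1, up to 0.0923) and 3 (Acaa1a, up to 0.0574) of the 18 fits. Among the further genes, the call was lost in 15 fits for Celf2, 14 for Wwtr1 and 13 each for Adgrg2, Bhlhb9 and Prkce. It was lost in 9 for Zfp759, 6 for Ces4a, 4 each for Lhpp and Tdrp, 3 for Pigp and 2 for Unc119. Fabp4 lost its call without MePy replicate 2 or 5 (adjusted p up to 0.0672), and Plin4 lost its call in 4 fits, 1 of them without Co5 replicate 2, the liver with a Plin4 value of 9.22 (adjusted p up to 0.208). The count of 25 ranged between 9 (without MePy replicate 5) and 31 over these 18 fits.

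**Figure D3:**
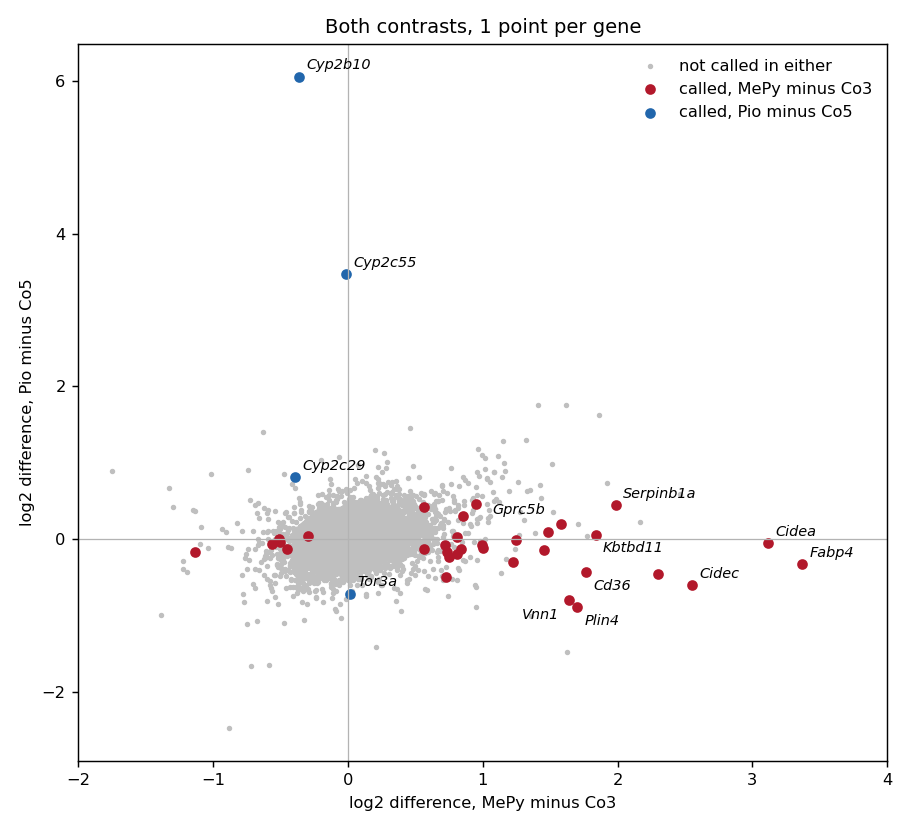
Log2 difference of each of 18193 genes in the livers labelled methapyrilene minus Co3 (horizontal axis) and in the livers labelled pioglitazone minus Co5 (vertical axis), with genes called in the first in red and in the second in blue. Fabp4, Cidea and Cidec lie far right near 0 on the vertical axis, and Cyp2b10 (6.06) and Cyp2c55 (3.48) lie far up near 0 on the horizontal axis.

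Across all 19 groups, the livers labelled methapyrilene had the highest mean for Cidec (7.11), Plin4 (8.69), Kbtbd11 (7.25), Gprc5b (6.12) and Anxa2 (9.34). For Plin4 the control cohort Co5 was second at 7.45. Its range of 6.71 to 9.22 overlapped with 6.61 to 9.61 in the livers labelled methapyrilene, and the highest Co4 liver was at 9.02. The livers labelled Wy-14643, a PPARα activator (100 mg/kg), were next for Cidec at 5.62 ± 1.37 (SD, n = 5), and their range of 4.07 to 7.43 overlapped with 4.17 to 8.25 in the livers labelled methapyrilene. For Fabp4 the livers labelled Wy-14643 came first with 12.66 ± 0.96, ahead of those labelled methapyrilene with 10.34 ± 2.13, and their ranges overlapped (11.17 to 13.44 and 7.44 to 12.54). The third mean for Fabp4 was 8.85 ± 0.17, in the livers labelled 1,4-dichlorobenzene. Cidea followed the order of Fabp4 at the top, with 9.60 ± 2.80 in the livers labelled Wy-14643 and 7.56 ± 2.06 in those labelled methapyrilene, and no other group mean exceeded 4.75. For Kbtbd11, Gprc5b and Anxa2 the livers labelled Wy-14643 were second, at 6.01, 5.92 and 9.07, with overlapping ranges. For Cd36 they came first (11.85), followed by those labelled 1,4-dichlorobenzene (11.20) and methapyrilene (10.71). The livers labelled Wy-14643 also had the highest mean for Vnn1 (11.91), Lpl (12.92), Cyp4a14 (14.12) and Bhlhb9 (8.49). These levels are a description, and the differences between treated groups were not tested.

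**Figure D4:**
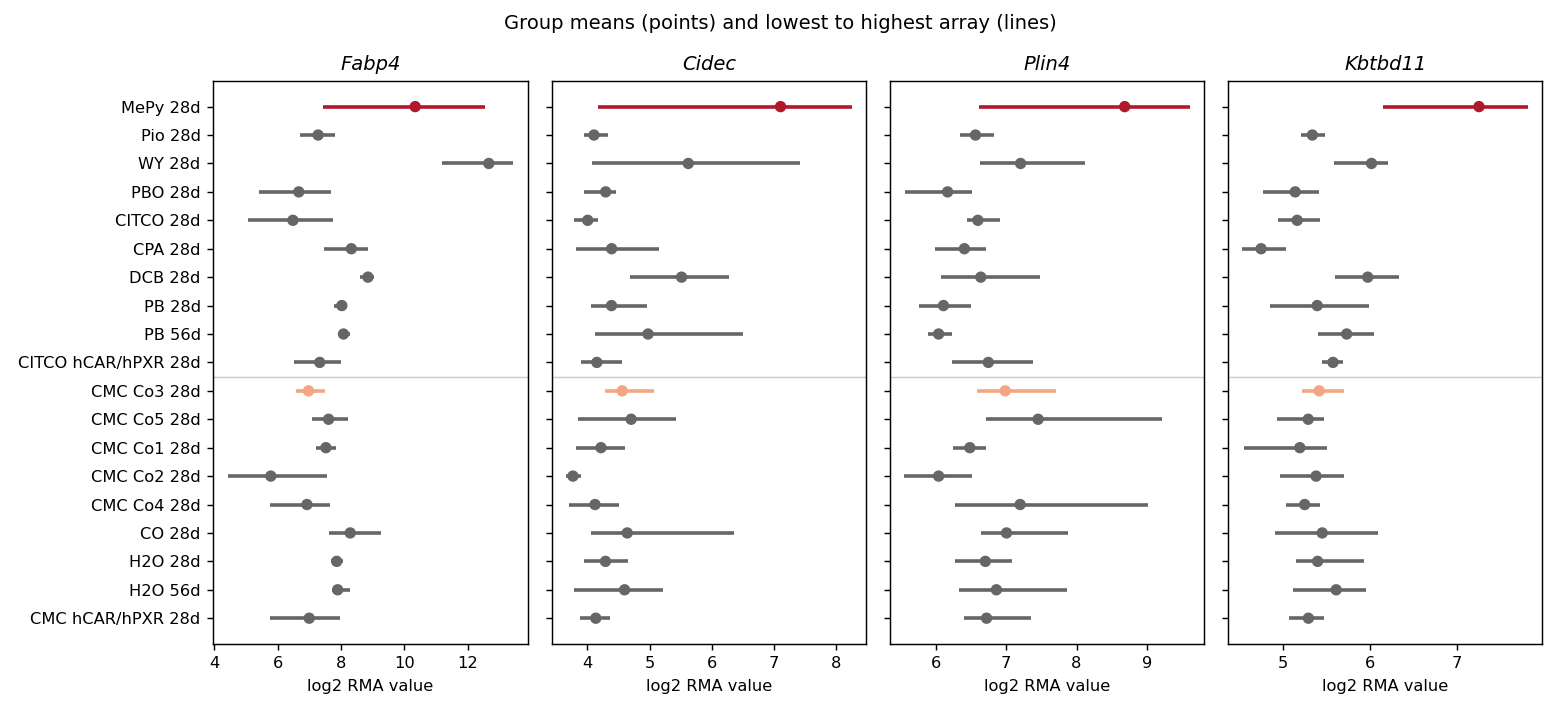
Log2 RMA value (horizontal axis) of Fabp4, Cidec, Plin4 and Kbtbd11 in the 19 groups, with treated groups above the grey line and control groups below it. Points are group means and lines run over the lowest to the highest array; MePy has the highest mean for Cidec (7.11), Plin4 (8.69) and Kbtbd11 (7.25), and WY has the highest for Fabp4 (12.66).

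The number of calls depended on the cohort used as control. Against the other CMC cohorts of C57BL mice, the livers labelled methapyrilene had 3226 calls (Co1, 17.7% of genes), 5968 calls (Co2, 32.8%), 338 calls (Co4, 1.86%) and 831 calls (Co5, 4.57%), and 33 against Co3. All 5 comparisons use the same MePy arrays and are not independent. The log2 difference of Fabp4 was 2.82 against Co1, 4.56 against Co2, 3.42 against Co4 and 2.74 against Co5, each called. That of Vnn1 was 0.33 against Co5 and was not called there (limma, adjusted p = 0.73).

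**Figure D5:**
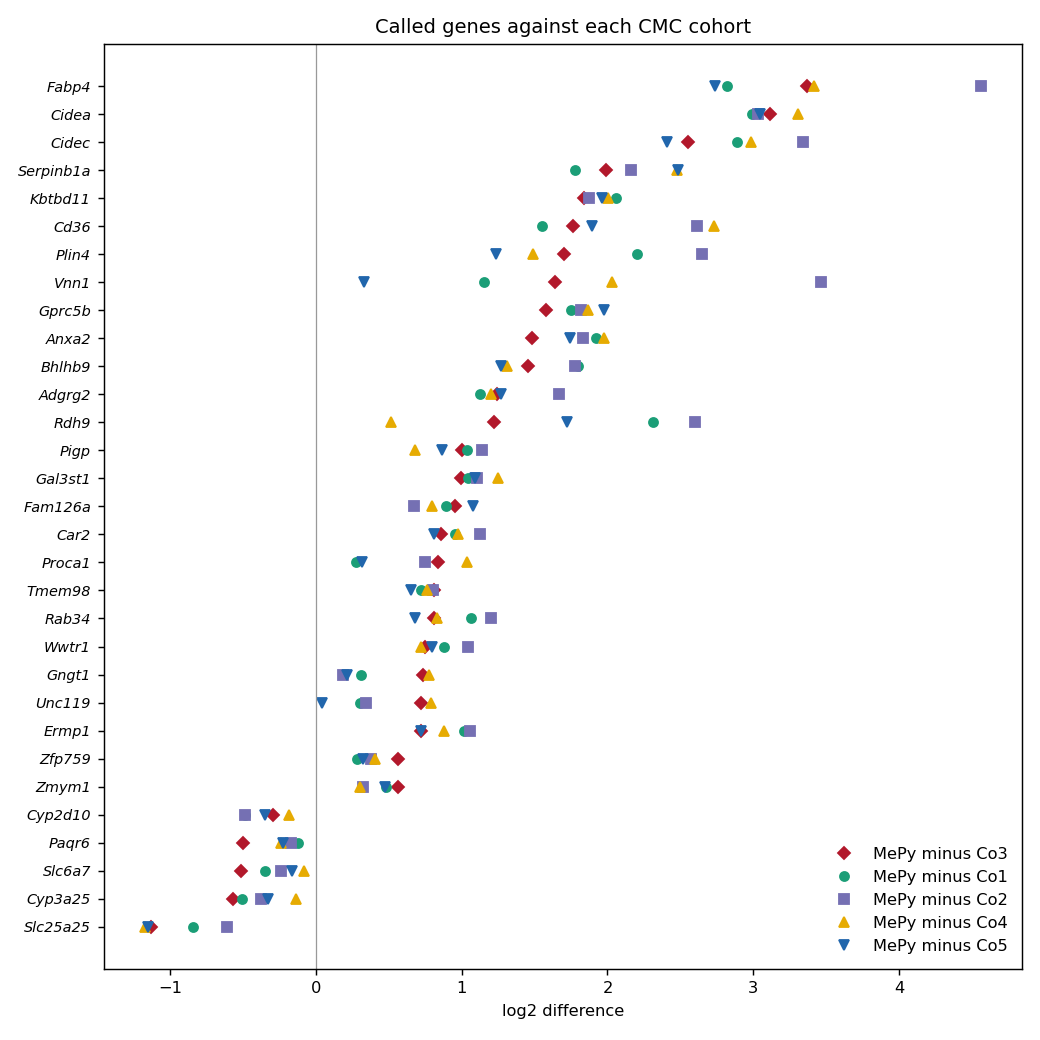
Log2 difference (horizontal axis) of the livers labelled methapyrilene minus each of 5 CMC cohorts, for 31 of the called genes, ordered by the difference against Co3 (red diamonds). The differences of Kbtbd11 and Gprc5b lie close together, and those of Fabp4 (2.74 to 4.56) and Vnn1 (0.33 to 3.46) spread widely.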

How the data were processed

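Total RNA of mouse liver, extracted with Qiazol, was labelled with the Affymetrix 3'IVT Express kit, per the labels' protocols. The authors deposited log2 expression values made with RMA, per the submitters' processing notes. RMA version, array software and genome build are not given in the sources used here. Of 45037 probe sets, 34945 had 1 gene symbol in the platform annotation, 932 had several and 9160 had none; 34741 matched a RefSeq gene (GRCm38.p6) by Entrez ID. For each of 18193 genes the brightest of its probe sets, by mean log2 value, was used. Array medians over all probe sets were 5.18 to 5.36, arrays of a group correlated with r of 0.989 to 0.992 in MePy and 0.988 to 0.991 in Co3, and no columns were identical. The small number of arrays limits the precision.

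Group means were estimated in limma (3.58.1, R 4.3.3) from the 91 arrays together (72 residual degrees of freedom, variance trend), with Benjamini-Hochberg adjustment over all genes and a threshold of 0.05; it was tested on simulated data. Named were the 15 largest called rises and falls whose groups did not overlap (clone-type symbols left out), the FABP, CIDE and perilipin families, defining adipocyte markers and up to 6 members of each list. Genes outside this rule were added after their values were seen: other called genes of the MePy contrast (1 called rise is not reported here), and the genes called in the Pio contrast or in the difference of contrasts. The members and lists were chosen with earlier results of these data known. Alternatives were the samples in the fit, variance moderation, probe set choice, a filter at a mean log2 value of 6, normalization, replicate number as a block, each array left out, and other control cohorts.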

Additional observations from a re-analysis of the deposited data

Results flagged for a closer look

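In single arrays, a gene or list mean stood far from the others of its group by Dixon's test, which flags about 1 in 20 groups by chance. In the livers labelled methapyrilene this held for 11 of 112 named genes. In replicate 4 Adipoq (3.13), Cidec (4.17), Plin4 (6.61) and Rdh9 (11.02) were low. In replicate 2 Fabp1 (14.62) and Tat (12.49) stood apart, as did Sult3a1 (9.05), a sulfotransferase, and the mean of the female-biased liver genes (6.33). Further values were Ces4a in replicate 1 (7.18), Hdc (5.23) and Plin2 (13.03) in replicate 3, and Paqr6 in replicate 5 (4.72).

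In Co3 this held for 13 of 112 genes, 10 of them in replicate 2: Acacb (8.35), Acot3 (7.69), the cyclin Ccnb2 (7.28), Ces4a (5.06), Cyp1a2 (11.88), Cyp7a1 (10.39), Hsd3b5 (8.72), Lpl (11.00), Serpinb1a (4.07) and Slco1a4 (10.01). The mean of the proliferation list was also far from the others there (6.83). In replicate 1 Slc7a10 (3.95) and Wwtr1 (8.06) stood apart, and in replicate 4 Rdh9 (9.94).

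The MePy and Pio contrasts differed, by limma's test of the difference between them at an adjusted p below 0.05, for 25 genes. Each contrast has its own control cohort, so differences between treatments and between cohorts cannot be told apart here. On the log2 scale the lipid genes differed by 3.70 (Fabp4), 3.15 (Cidec), 2.59 (Plin4), 2.37 (Gpat3) and 2.19 (Cd36). Vnn1 differed by 2.44, Kbtbd11 by 1.79, Bhlhb9 by 1.60, Gprc5b by 1.39, Adgrg2 by 1.26, Lhpp by 1.24, Ces4a by 1.23 and Unc119 by 1.21. Pex11a differed by 1.18, Pigp by 1.12, Wwtr1 by 0.98, Acaa1a by 0.97, Celf2 by 0.91, Tdrp by 0.85, Prkce by 0.80 and Zfp759 by 0.70. With each of the 18 arrays left out in turn, Bhlhb9, Adgrg2, Wwtr1, Celf2 and Prkce lost their calls in 13 to 15 fits. The 4 genes with a lower difference in the MePy contrast were Cyp2b10 (-6.42), Cyp2c55 (-3.49), Cyp2c29 (-1.21) and Ces2a (-0.82). Of these 25 genes, 13 were called in the same direction in the MePy contrast alone. Lhpp, Ces4a, Celf2, Tdrp, Prkce and Ces2a were not called there. Neither were Gpat3, Pex11a, Acaa1a, Cyp2b10, Cyp2c55 and Cyp2c29. For Lhpp and Prkce, Co3 itself differed from the mean of the other CMC cohorts by -0.55 and -0.37 (limma, adjusted p = 0.0137 and 0.0163).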

How the results depend on the processing

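The count of 33 genes for the livers labelled methapyrilene against Co3 was 4 in a fit of only the 9 arrays compared and 18 among genes with a mean log2 value of at least 6, where fewer genes were tested. Leaving out 1 array gave 15 to 39 calls, with 15 without MePy replicate 5, 16 without Co3 replicate 4, 18 without Co3 replicate 1 and 21 without Co3 replicate 3. Another control cohort gave 3226 (Co1), 5968 (Co2), 338 (Co4), 831 (Co5) and 2785 calls (the mean of the 5); the cause was not tested. The count of 4 for the livers labelled pioglitazone was 11 with only the arrays compared, 16 with every probe set, 11 with the mean of probe sets, 7 with the filter on low values, 7 after quantile normalization, 92 against Co3, 1058 against the mean of the 5 cohorts, and 3 to 21 with 1 array left out (21 without Pio replicate 3, 15 without Co5 replicate 3, 11 without Co5 replicate 1). The difference of contrasts had 416 calls when MePy was set directly against Pio, and 9 to 31 with 1 array left out. Of 112 named genes, 43 changed sign against at least 1 other cohort, an alternative chosen after seeing the data for single genes, and 10 under another setting; none of the 31 called genes named did. Those that changed sign and were called on the other side were Cyp2c55 (0.95), Orm2 (-2.49), Plin2 (1.42) and Plin3 (-0.46) against Co2, and Lcn2 (-4.04) and Orm2 (-3.31) against Co4. Uncalled changes included Mt2 (-0.87 against Co2, -2.62 against Co4), Alas1 (-1.48) and Pfkfb3 (-1.17) against Co4, and Ube2c (0.21) without Co3 replicate 2. With the replicate number as a block the 3 counts were 30, 4 and 25. Numbers did not pair the arrays: same-numbered deviations correlated between -0.14 and 0.16, and 1 of 4 numbers correlated best with its own.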
